A study of Homo sapiens with 10 samples.

Results

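The circadian clock genes described here are 10 genes of the transcription and translation feedback loop that keeps roughly daily time in most human cells: PER1, PER2, PER3, CRY1, CRY2, BMAL1, CLOCK, NR1D1, NR1D2 and DBP. They were chosen by name, as the array spots whose annotated gene symbol is one of these. All 10 were found, on 21 of 45220 spots, among 18334 genes measured. The cells were A549, a human lung adenocarcinoma line, and total RNA was labelled with Cy3 and hybridised to 1-colour arrays. The groups were 5 cultures grown in rotating wall vessels (RWV), slowly turning fluid-filled chambers that keep cells suspended under low shear, and 5 conventional monolayers (Mono), each group described in the labels as biological replicates. All shared a single cell line and no other treatment is named, and the medium, of the Dulbecco type, held 4 mM glutamine and 10% serum from foetal calves. The growth text of every sample names RWV, and the titles were used to assign the groups. The hour of harvest, days in culture and any step that would set the clocks of the cells to a common phase were not stated in the labels, so a change of mean level and a change of phase cannot be told apart.

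In the core loop, CLOCK and BMAL1 pair and activate genes that carry an E-box, among them the PER, CRY, NR1D and DBP genes. PER and CRY proteins then enter the nucleus and inhibit CLOCK and BMAL1, and the nuclear receptors NR1D1 and NR1D2 (REV-ERB alpha and beta) repress BMAL1 through a second element, the RRE. DBP is an output factor that binds D-boxes, which lie in PER genes and in many genes of metabolism. Lung epithelium keeps such a clock in the body, and cultured cells keep it too but drift apart in phase unless synchronised.

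RefSeq promoter entries of build GRCh38.p14 were matched for 10 of 10 clock genes, with 15 annotated starts. In the 250 bases before each start, the canonical E-box (CACGTG) and an E-box-like form (CACGTT, or AACGTG on the other strand) were searched on both strands. At least 1 match lay before a start of 7 genes. The E-box was held by 6.34% and the E-box-like form by 4.55% of the 35116 promoter windows of the same length. These shares count windows, with each form apart. The 7 are genes with either form before any start, and 5 of the 10 genes had several starts. The count and the shares are therefore not alike. The 8 sites are shown on the strand of the gene, with the match in capitals, so that the letters can be compared between genes. Whether CLOCK and BMAL1 act through any of these sites was not tested.
NR1D1, chr17:40100740-40100769, minus strand: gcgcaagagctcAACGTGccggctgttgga
NR1D2, chr3:23945954-23945983, plus strand: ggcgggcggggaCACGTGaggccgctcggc
NR1D2, chr3:23946004-23946033, plus strand: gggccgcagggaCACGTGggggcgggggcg
PER1, chr17:8152560-8152589, minus strand: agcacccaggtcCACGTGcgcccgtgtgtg
PER2, chr2:238288790-238288819, minus strand: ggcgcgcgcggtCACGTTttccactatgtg
CRY1, chr12:107093621-107093650, minus strand: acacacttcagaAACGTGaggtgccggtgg
CRY2, chr11:45847275-45847304, plus strand: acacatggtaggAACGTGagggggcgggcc
CLOCK, chr4:55546102-55546131, minus strand: tcaccactcgggCACGTTtggagcagcgcc

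The 2 sites of NR1D2 lie 155 and 105 bases before the second of its annotated starts, and none lay before the first. The sites of CRY2 and CLOCK likewise lay before only 1 of the 2 annotated starts of each gene. The D-box (TTATGTAA, or TTACATAA), held by 0.834% of all windows, was present before a start of PER3 and of NR1D2. The AGGTCA core of the RRE, held by 12.1%, was present before the start of PER1 and before both starts of CRY2. It was before neither start of BMAL1, and only this core of the RRE was searched. The cAMP response element (CRE, TGACGTCA), held by 1.65%, was before no start of the 10 genes. BMAL1, DBP and PER3 had neither form of the E-box in these windows, which says only that these letters are not in them. The full window of NR1D1, the gene with the largest change among the 10, is chr17:40100590-40100839 on the minus strand, with the E-box-like match in capitals: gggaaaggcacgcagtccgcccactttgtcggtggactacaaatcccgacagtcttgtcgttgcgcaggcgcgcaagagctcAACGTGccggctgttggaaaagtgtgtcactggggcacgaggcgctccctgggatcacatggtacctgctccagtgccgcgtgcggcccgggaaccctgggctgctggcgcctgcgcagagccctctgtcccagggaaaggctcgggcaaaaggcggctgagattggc. Matches are a description of the letters and not evidence of binding.

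Values below are normalised intensities: spot brightness made comparable between arrays by quantile normalisation, with the spots of a gene averaged on a log2 scale. A spot below 100 was treated as dim. The median spot of the deposited arrays lay between 114 and 138 in RWV and between 122 and 184.5 in Mono. By the lower end of the intensities, arrays 1 to 3 of both groups formed one set (5th percentile 8 to 20) and arrays 4 and 5 another (0 to 4). On the first principal component of all genes, which held 64% of the variance, RWV arrays lay at 20.4 to 54.6 and Mono arrays at -73 to -21.5, with RWV 3 nearest to the other group and Mono 4 farthest from it. The epithelial markers EPCAM, CDH1, KRT8, KRT18 and KRT19 were all above the dim level, with a summed level of 59100 to 107000 in RWV and 36500 to 72400 in Mono. Markers of leukocytes, fibroblasts and endothelium (9 genes) summed, for each type, to at most 182 in RWV and 227 in Mono. Of all these markers 2 passed the test, KRT19, higher in RWV (means of 44860 in RWV and 15240 in Mono, limma adjusted p = 0.0062), and COL1A1, a fibroblast collagen gene, lower (68.6 in RWV and 114 in Mono, limma adjusted p = 0.049), both with overlapping groups. The other epithelial markers went both ways and did not pass. Their log2 differences were 0.62 for CDH1, 0.08 for KRT18, -0.84 for EPCAM and -0.29 for KRT8. KRT8, KRT18 and KRT19 each had a spot at or above 60000, the level treated as saturated, on some array. The part of these markers in the results was not tested. In bulk RNA, fewer cells of a kind and less RNA per cell cannot be told apart.

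Of the 10 clock genes, 4 rose in RWV cultures and 1 fell, and 5 did not pass the test (limma, Benjamini-Hochberg adjusted p below 0.05 over all genes). The genes that rose were NR1D1, NR1D2, PER2 and CRY2, all of them repressors within the loop, and the gene that fell was the repressor CRY1. The repressors PER1 and PER3 were among the 5 that did not pass, and PER, CRY and NR1D genes make up most of the 10. In the same fit 30.1% of all genes passed, 15% higher and 15.2% lower in RWV. These same 5 clock genes were also those whose RWV values did not overlap the Mono values, 4 above and 1 below. Of all genes 23.1% showed no overlap, 10.9% above and 12.2% below. Of the 21 clock gene spots, 7 rose and 2 fell, against 22.7% of all spots past the test. The median log2 difference was 0.26 over the 10 clock genes and 0.0055 over all genes. In what follows, ± after a log2 difference is its standard error in the limma fit, with n = 5 arrays in each group, and p is adjusted over all 18334 genes.

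**Figure D1:**
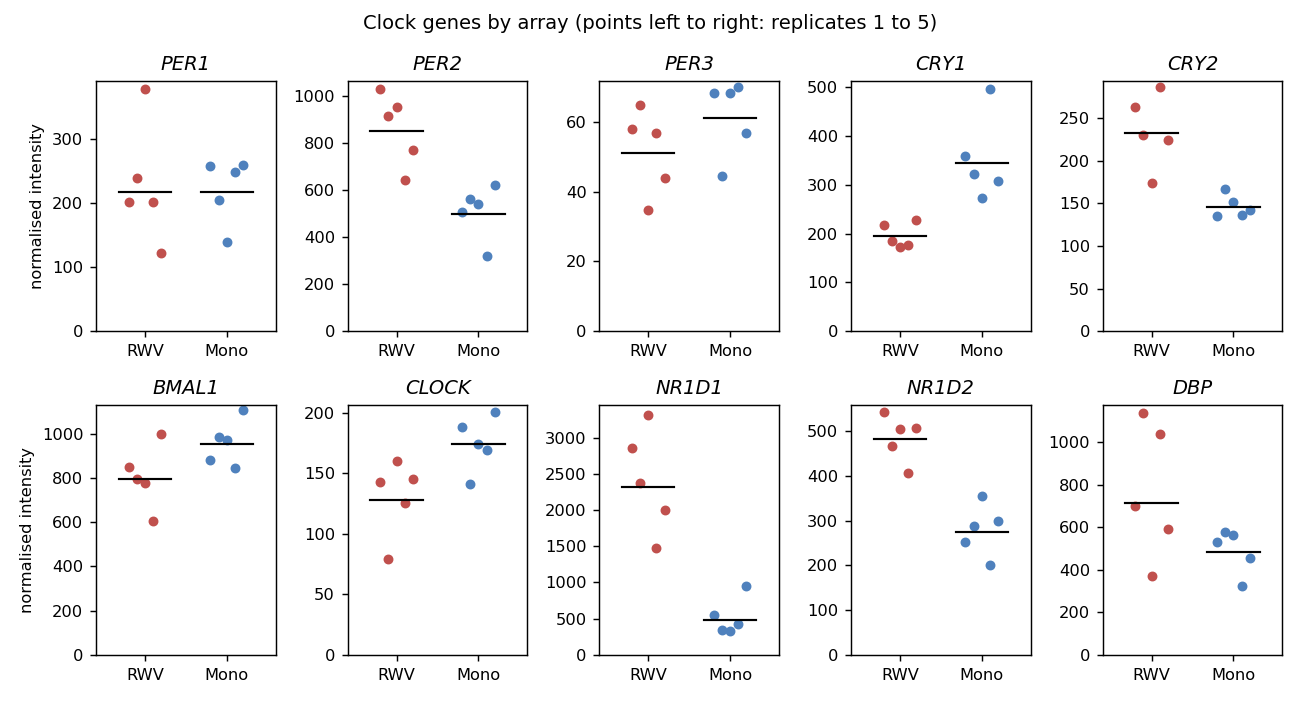
Normalised intensity (linear axis from 0) of the 10 clock genes on each RWV array (red, left) and each Mono array (blue, right), with the group mean of log2 values turned back to intensity as a line. NR1D1, NR1D2, PER2 and CRY2 lay higher on all 5 RWV arrays than on any Mono array, CRY1 lay lower on all 5, and the other 5 genes overlapped.

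NR1D1 encodes REV-ERB alpha, a heme-binding nuclear receptor that represses BMAL1. Its normalised intensity on arrays 1 to 5 was 2851, 2367, 3306, 1478 and 1998 in RWV, against 556, 343, 337, 424 and 948 in Mono. The lowest RWV array was above the highest Mono array. The difference was 2.14 ± 0.28 on the log2 scale (limma, adjusted p = 0.00019), a 4.42-fold higher level in RWV. Both of its spots rose, by 2.44 ± 0.36 and 1.85 ± 0.20 on the log2 scale, over different brightness ranges (means of 6744 in RWV and 1200 in Mono for the brighter, 772 and 178 for the dimmer). Within arrays 1 to 3 the log2 difference was 2.67 (limma, adjusted p = 0.0035), and within arrays 4 and 5 it was 1.36 (adjusted p = 0.11, 2 arrays a group). The group ranges are wide, and Mono 5 stood highest among the monolayers. At the genomic locus NR1D1 overlaps the end of THRA on the opposite strand. THRA, looked up because of this overlap, averaged 4628 in RWV and 3006 in Mono and did not pass the test (log2 difference 0.61 ± 0.33, limma adjusted p = 0.19, and 0.29 without Mono 4).

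NR1D2 encodes REV-ERB beta, the close relative of REV-ERB alpha. It gave 543, 468, 505, 408 and 507 on the RWV arrays, against 252, 289, 355, 201 and 300 on the Mono arrays. All RWV values were above all Mono values. The log2 difference was 0.72 ± 0.13 (limma, adjusted p = 0.0018), 1.64-fold, and the 2 spots gave 0.67 and 0.76. It was smaller than that of NR1D1, whose 95% interval of 1.54 to 2.75 lay above that of NR1D2, 0.43 to 1.01. That difference between the genes was not itself tested, and array signals of different probes need not respond alike. Within arrays 1 to 3 and within arrays 4 and 5 the log2 difference of NR1D2 was 0.68 (limma, adjusted p = 0.025) and 0.77 (0.13).

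PER2 is a PERIOD protein gene whose product forms the repressor complex with CRY. Its normalised intensity was 1029, 917, 953, 643 and 771 in RWV, against 507, 564, 542, 320 and 620 in Mono. The lowest RWV value, on array 4, was just above the highest Mono value, on array 5. The log2 difference was 0.71 ± 0.17 (limma, adjusted p = 0.0084), again 1.64-fold. The brighter spot rose by 0.84 ± 0.18 (limma, adjusted p = 0.0053 over all spots), and the dimmer spot gave 0.58 ± 0.22 and did not pass (0.082). Array 4 was the lowest for PER2 in each group. Within the 2 array sets the log2 difference was 0.79 (limma, adjusted p = 0.011) and 0.60 (0.33).

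The other PER genes showed no such shift. PER1 is also induced directly by cAMP and glucocorticoid signals in many cells. It gave 203, 240, 378, 201 and 123 in RWV, against 258, 205, 140, 249 and 259 in Mono. The groups overlapped, with the highest and the lowest of the 10 values both in RWV. The log2 difference was -0.0046 ± 0.22 (limma, adjusted p = 0.99). Its 95% interval of -0.49 to 0.48 did not exclude a change of up to about that size in either direction. One of its 2 spots was dim on 4 of 5 RWV and 5 of 5 Mono arrays. The sign of its difference was not the same in the array sets, 0.36 within arrays 1 to 3 and -0.55 within arrays 4 and 5 (limma, adjusted p = 0.39 and 0.24). PER3, the third family member, was dim on every spot and array of RWV and above the dim level only on 2 Mono arrays at 1 of its 3 spots. It averaged 51.0 in RWV and 61.1 in Mono (log2 difference -0.14 ± 0.11, limma adjusted p = 0.43).

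The CRY genes moved in opposite directions. CRY1, the cryptochrome that gives the strong late repression of CLOCK and BMAL1, gave 218, 186, 172, 177 and 228 in RWV, against 359, 323, 272, 497 and 308 in Mono. All RWV values were below all Mono values. It fell by 0.69 ± 0.14 on the log2 scale (limma, adjusted p = 0.0033), 1.61-fold lower in RWV. Its spots gave -0.80 ± 0.16 and -0.58 ± 0.19, and the spot with the smaller estimate was dim on 3 of 5 RWV arrays. Within the array sets it was -0.60 (limma, adjusted p = 0.032) and -0.82 (0.14). In Mono it was highest on array 4, where PER2, NR1D2 and DBP had their lowest Mono values.

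CRY2, the other cryptochrome, gave 263, 231, 174, 286 and 225 in RWV, against 135, 167, 151, 136 and 142 in Mono. The groups did not overlap, and RWV 3 lay closest to the Mono arrays. It rose by 0.53 ± 0.12 on the log2 scale (limma, adjusted p = 0.0053), 1.44-fold. This average joined spots that disagreed: 2 spots rose, by 1.21 ± 0.15 and 0.77 ± 0.15, the smaller of these dim on 4 of 5 Mono arrays, and the third, dim on 5 of 5 RWV and 4 of 5 Mono arrays, gave -0.39 ± 0.20 (limma, adjusted p = 0.21 over all spots). The brightest spot alone, with means of 1257 in RWV and 516 in Mono, therefore showed a difference more than 1.5 times that of the average. Within the array sets the averaged log2 difference was 0.43 (limma, adjusted p = 0.12) and 0.68 (0.11), past the test in neither.

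**Figure D2:**
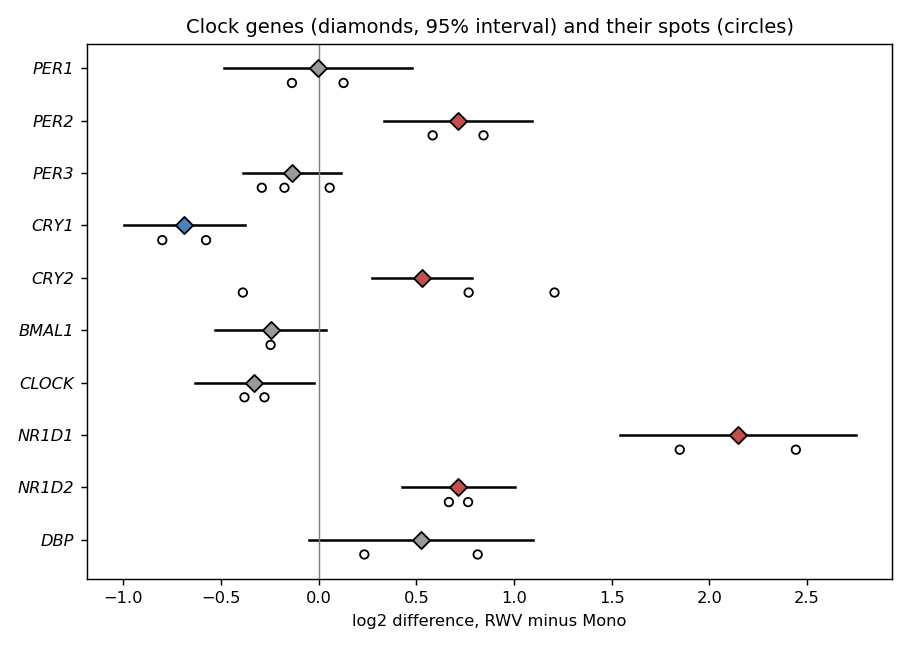
Log2 difference, RWV minus Mono, for each clock gene (diamond with 95% interval of the limma fit; red rose, blue fell, grey did not pass) and for each of its spots (open circles under it). Spots of a gene lay on the same side of 0 except for PER1, PER3 and CRY2, where CRY2 spots ran from -0.39 to 1.21.

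The activators of the loop did not pass the test, and both estimates were below 0. BMAL1, measured by 1 spot, gave 849, 794, 777, 608 and 1000 in RWV, against 879, 984, 973, 844 and 1106 in Mono. The ranges overlapped, though 4 of the 5 RWV values lay under the 4 highest Mono values. The log2 difference was -0.25 ± 0.13 (limma, adjusted p = 0.19; 95% interval -0.53 to 0.04), and -0.16 without RWV 4. CLOCK, its partner in the heterodimer, averaged 128 in RWV and 174 in Mono, with values from 79.5 to 160 in RWV and from 141 to 201 in Mono. RWV 2 was the low value, and without it the log2 difference was -0.21. Over all arrays the log2 difference of CLOCK was -0.33 ± 0.14 (limma, adjusted p = 0.098). Its 95% interval was -0.63 to -0.03, an interval not adjusted for the number of genes. Its 2 spots gave -0.28 ± 0.10 and -0.38 ± 0.21, and neither passed (limma, adjusted p = 0.074 and 0.25 over all spots). At the first of these spots all RWV values (97 to 131) lay below all Mono values (136 to 163), and at the other the groups overlapped.

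DBP, the D-box output factor, varied more among RWV arrays than any of the other 9 genes. It gave 700, 1134, 369, 1038 and 592 in RWV, against 531, 579, 565, 323 and 454 in Mono. Of the RWV values, 4 were above all Mono values and RWV 3 was below 4 of them. The log2 difference was 0.52 ± 0.26 (limma, adjusted p = 0.17), and without RWV 3 it was 0.74 (adjusted p = 0.022). The SD of its log2 values was 0.61 in RWV and 0.31 in Mono (n = 5 each). The spots gave 0.81 ± 0.35 and 0.23 ± 0.20, and neither passed. Within the array sets the difference was 0.24 and 0.95 (limma, adjusted p = 0.69 and 0.15).

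**Figure D3:**
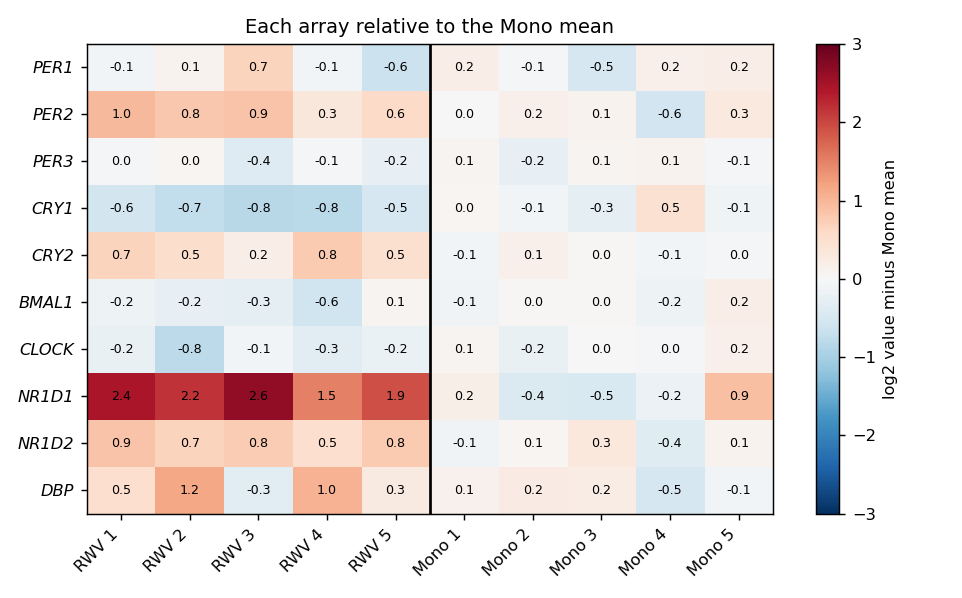
Log2 value of each clock gene on each array minus the mean of the 5 Mono arrays, with RWV arrays on the left and Mono arrays on the right. NR1D1 lay 1.5 to 2.6 above the Mono mean on the RWV arrays, and RWV 3 had the highest RWV values of NR1D1 and PER1 and the lowest of CRY2, DBP, PER3 and CRY1.

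Apart from the difference between groups, the 10 genes did not vary as a single block from array to array. After each group mean was removed, Pearson correlations over the 10 arrays had a median of -0.03 over the 45 gene pairs and ran from -0.69 to 0.81. The arrays were normalised together, and differences between arrays 1 to 3 and arrays 4 and 5 were not removed. The highest was that of PER2 with NR1D2 (r = 0.81, and 0.59 over the 8 arrays without RWV 3 and Mono 4). CRY2 with DBP followed at 0.745, and at 0.348 over those 8 arrays. BMAL1 correlated with NR1D2 at 0.652 (0.651 over 8) and with PER2 at 0.574 (0.582), and PER1 with NR1D1 at 0.602 (0.547). The pair of REV-ERB genes correlated at 0.19 only. CLOCK with DBP was lowest, at -0.69. These values describe 10 arrays and carry no test. The genes whose deviations were most like those of NR1D1, the clock gene with the largest change, were GOLGA6L9 (r = 0.97), CCNL1 (0.96), FNIP1 (0.95), TAS2R3 (0.94) and MAP3K8 (0.94). TAS2R3 was dim in both groups and GOLGA6L9 belongs to a family of near-identical copies. The 5 were picked from all genes on 10 arrays.

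Beyond the 10 genes, 6 lists of clock-related genes held 72 genes, of which 66 were measured and the other 6 were not analysed here. Of these, 10 rose and 11 fell, that is 31.8% of those measured and close to the 30.1% of all genes. As a set they did not stand out, and the lists are described through their members. In the fit without normalisation between arrays 4 rose and 11 fell.

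**Figure D4:**
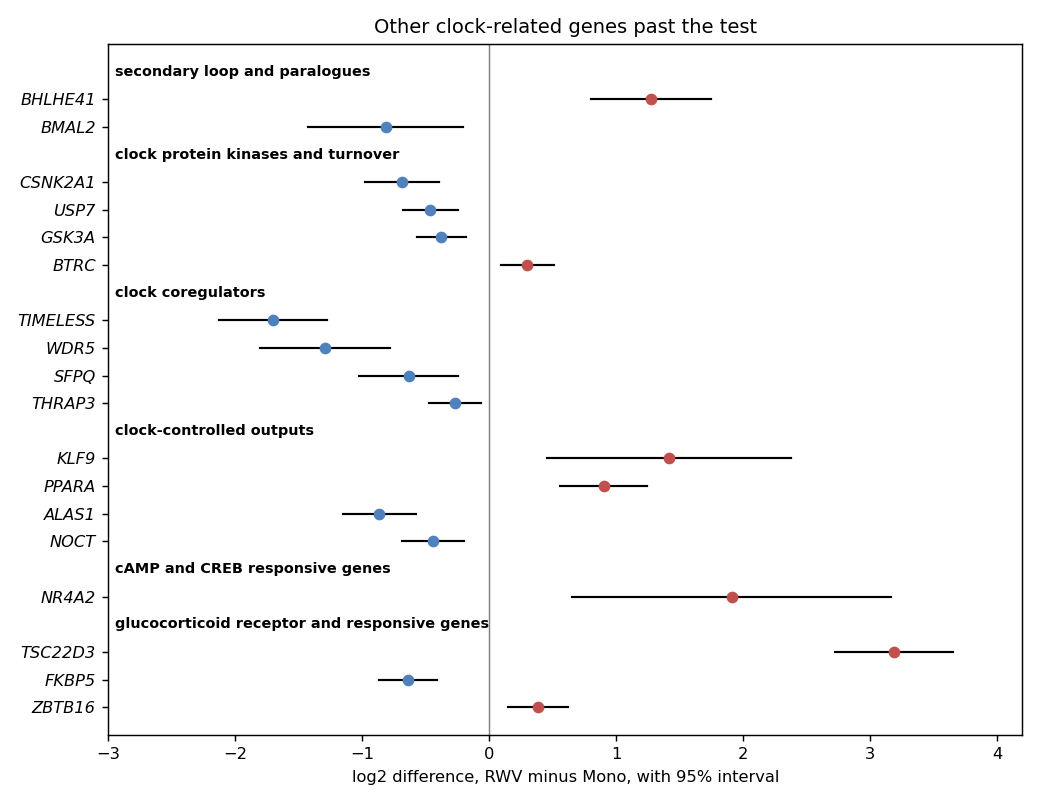
Log2 difference, RWV minus Mono, with the 95% interval of the limma fit, for the clock-related genes named by rule in each list; red rose and blue fell. TSC22D3 had the largest rise and TIMELESS the largest fall, and BHLHE41, dim in Mono, is drawn at its fitted value although only a bound can be given.

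The secondary loop holds further E-box, D-box and RRE factors and paralogues of the core genes. Of its 10 measured genes 2 rose and 1 fell, with a median log2 difference of 0.10. The share past the test was 30%, close to the 30.1% of all genes. BHLHE41 and BHLHE40 (DEC2 and DEC1) are E-box binding repressors that compete with CLOCK and BMAL1. BHLHE41 gave 117, 219, 82.9, 210 and 129 in RWV, against 22.2, 9.9, 41.4, 58.6 and 28.7 in Mono. It was dim on every Mono array, and its level in RWV was at least 1.30-fold higher (limma, adjusted p = 0.00099). BHLHE40, which was named after its value was seen, gave 16690, 19210, 15480, 7714 and 9490 in RWV, against 6976, 3333, 3622, 2117 and 9108 in Mono. It rose by 1.55 ± 0.38 on the log2 scale (limma, adjusted p = 0.009), and the groups overlapped because Mono 5 was above RWV 4. It is also a target of hypoxia signalling. BMAL2, the paralogue of BMAL1, fell by 0.82 ± 0.28 (limma, adjusted p = 0.044), with 270 to 357 in RWV and 360 to 1382 in Mono. This call was lost without any of 7 arrays (Mono 1 or 5, RWV 1 to 5; adjusted p 0.055 to 0.091), and Mono 4 alone held the value of 1382. Without Mono 4 the log2 difference of BMAL2 was -0.52. NFIL3, the D-box repressor that opposes DBP, gave a log2 difference of 0.11 ± 0.17, the CLOCK paralogue NPAS2 gave -0.20 ± 0.12 and the DBP relative TEF gave 0.29 ± 0.11, none past the test (limma, adjusted p = 0.69, 0.26 and 0.074). TEF passed without RWV 3 (0.37, limma adjusted p = 0.021) and by its brightest spot alone (0.85, adjusted p = 0.011).

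Among the kinases and ubiquitin factors that set the stability of PER and CRY, 2 of 17 measured genes rose and 3 fell, with a median of -0.08. The share past the test was 29.4%, close to the 30.1% of all genes. CSNK2A1, a catalytic subunit of casein kinase 2, fell by 0.68 ± 0.13 (limma, adjusted p = 0.0023). USP7, a deubiquitinase that stabilises CRY proteins, fell by 0.46 ± 0.10 (adjusted p = 0.0042), and the kinase gene GSK3A fell by 0.38 ± 0.09 (adjusted p = 0.0074). BTRC, a ubiquitin ligase subunit that recognises phosphorylated PER, rose by 0.30 ± 0.09 (limma, adjusted p = 0.031), and the PER kinase gene CSNK1E rose by 0.35 ± 0.12 (0.043) with overlapping groups. The call for BTRC was lost without any of 6 arrays (Mono 1, 2 or 4, RWV 1, 3 or 5; adjusted p 0.055 to 0.073), and that for CSNK1E without any of 7 (all but Mono 2, RWV 3 and RWV 4; 0.058 to 0.1). By the brightest spot alone the log2 difference was 0.73 for BTRC (limma, adjusted p = 0.0035) and -0.77 for USP7 (0.00084). GSK3A did not pass with median scaling (limma, adjusted p = 0.077).

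Of the coregulators, 0 of 14 measured genes rose and 4 fell by limma, with a median of -0.06. The share past the test, 28.6%, was close to the 30.1% of all genes (15% higher and 15.2% lower). At an unadjusted p below 0.05, 0 coregulators were higher and 4 lower, against 7149 of all 18334 genes in either direction. TIMELESS, whose mammalian product binds clock proteins and also travels with the DNA replication fork, gave 308, 316, 682, 536 and 356 in RWV, against 1624, 1476, 1230, 1630 and 1471 in Mono. It fell by 1.70 ± 0.19 on the log2 scale (limma, adjusted p = 1e-04), 3.25-fold lower, with RWV 3 nearest to Mono. WDR5, a subunit of histone methyltransferase complexes, fell by 1.29 ± 0.23 (limma, adjusted p = 0.0015). The RNA and DNA binding protein gene SFPQ, a PER complex component, fell by 0.63 ± 0.18 (0.018), and gave -0.54 by its brightest spot alone (limma, adjusted p = 0.054). THRAP3, a coactivator of CLOCK and BMAL1, fell by 0.27 ± 0.09 (limma, adjusted p = 0.047), a call lost without any of 9 arrays, all but Mono 3 (0.052 to 0.12).

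Among genes driven by the clock in other tissues, 2 of 8 measured genes rose and 2 fell, with a median of -0.14. The share past the test was 50%, against 30.1% of all genes, and rests on 8 genes. Its difference from all genes was not tested. PPARA, a lipid-sensing nuclear receptor, gave 220, 237, 201, 222 and 210 in RWV, against 71.7, 105, 146, 52.6 and 110 in Mono. It rose by 0.90 ± 0.16 (limma, adjusted p = 0.0012), and by 1.603 by its brightest spot alone (adjusted p = 0.0014). The Kruppel-like factor KLF9 rose by 1.42 ± 0.44 (limma, adjusted p = 0.029), and its lowest value, 632, was on Mono 4, without which the log2 difference was 0.94 (adjusted p = 0.0068). The call for KLF9 was lost without any of 4 other arrays (Mono 1, RWV 1, 2 or 5; adjusted p 0.052 to 0.069). ALAS1, the first enzyme of heme synthesis, fell by 0.86 ± 0.13 (limma, adjusted p = 0.00053). The deadenylase-family gene NOCT, or nocturnin, fell by 0.44 ± 0.11 (0.011) at levels near or below the dim level, and did not pass with scaling to the 75th percentile (limma, adjusted p = 0.089).

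Of genes that respond to the signals known to reset clocks, TSC22D3 moved most. TSC22D3, a glucocorticoid-induced leucine zipper gene, gave 3904, 4246, 3592, 2344 and 3217 in RWV, against 368, 295, 399, 186 and 454 in Mono. It rose by 3.19 ± 0.21 on the log2 scale (limma, adjusted p = 1.1e-05), 9.11-fold. FKBP5, a second gene induced by glucocorticoids, fell by 0.64 ± 0.11 (0.00086), and the glucocorticoid-induced ZBTB16 rose by 0.38 ± 0.11 (0.019), both by limma. The call for ZBTB16 was lost without Mono 1 or Mono 2 (adjusted p 0.056 and 0.051). In all, 3 of the 7 glucocorticoid-related genes rose, 1 fell and 3 did not pass, with a median of 0.37. The share past the test was 57.1%, against 30.1% of all genes (15% higher and 15.2% lower). This share rests on 7 genes, and its difference from all genes was not tested. In the list for cAMP and CREB, 3 of 10 measured genes were higher and 1 lower at an unadjusted p below 0.05. Of all 18334 genes, 7149 were below that level in either direction. After adjustment 1 of the 10 rose and 0 fell by limma, 10% against 30.1% of all genes. The gene that rose was NR4A2, an orphan nuclear receptor gene, by 1.91 ± 0.58 on the log2 scale (limma, adjusted p = 0.025), with overlapping groups, and the median of the list was 0.0087. Its call was lost without any of 4 arrays (Mono 3, RWV 1, 2 or 3; adjusted p 0.051 to 0.062).

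Of the 20 genes past the test that are named from these lists, 2, TIMELESS and TSC22D3, also passed within arrays 4 and 5, where only 2 arrays a group entered, and 11 within arrays 1 to 3. BMAL2, USP7, GSK3A, BTRC, CSNK1E, SFPQ, THRAP3, NOCT and ZBTB16 passed in neither set. Without normalisation between arrays 12 of the 20 passed, and BMAL2, GSK3A, BTRC, CSNK1E, THRAP3, KLF9, NR4A2 and ZBTB16 did not. The log2 difference was then 0.09 for BTRC, 0.11 for CSNK1E and 0.18 for ZBTB16.

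The direction of each of the 5 clock genes past the test was the same under each of 24 other settings, and the size of NR1D1 ran from 1.36 to 2.67 on the log2 scale. The number past the test was 5 or 6 when any single array was left out, and the same 5 were among them. It was 2, NR1D1 and CRY1, without normalisation between arrays, where the median of all genes was -0.13. Relative to that median NR1D1 then differed by 1.98, NR1D2 by 0.62, PER2 by 0.59, CRY2 by 0.50 and CRY1 by -0.76 on the log2 scale. No clock gene spot came near saturation, the brightest deposited value being 8472.

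**Figure D5:**
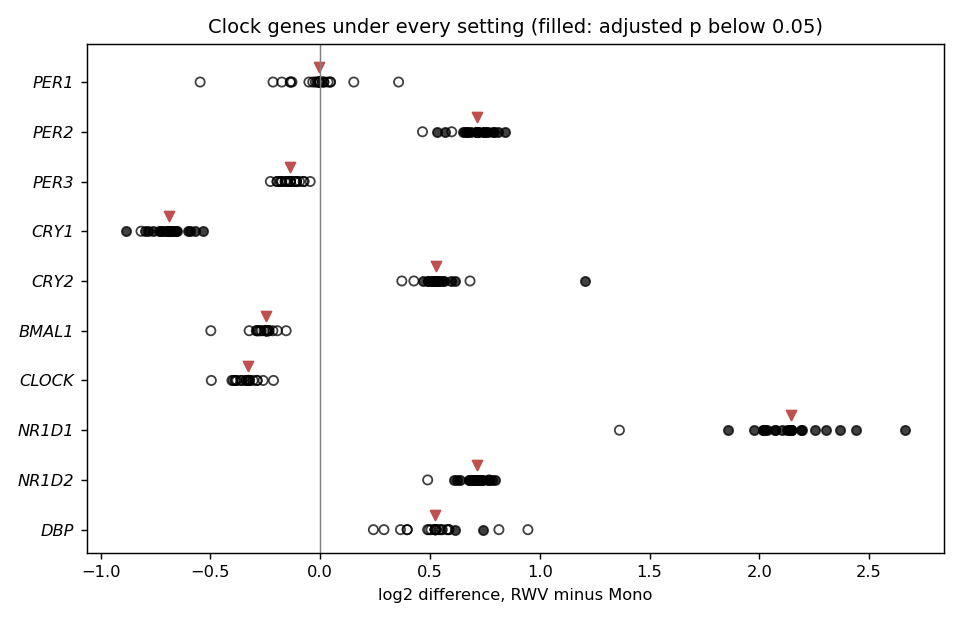
Log2 difference, RWV minus Mono, of each clock gene under the reported setting (red triangle) and under all settings tried (circles, filled where the adjusted p was below 0.05). NR1D1, NR1D2, PER2 and CRY2 lay above 0 and CRY1 below 0 in every setting, and PER1 fell on both sides of 0.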

How the data were processed

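The authors deposited 1 table of spot intensities, 45220 whole numbers for each of 10 arrays on a linear scale from -66 to 65493. Values below 0 point to background subtraction before deposit, and unequal medians to no normalisation between arrays. The scanner, its software and the way background was removed were not stated in the labels. The platform annotation gave 31332 spots 1 symbol. Symbols were checked by gene number against RefSeq (GRCh38.p14), which matched 31291 and changed 0. The array names no build, so spots are given no coordinates; those of promoter windows are RefSeq's.

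Intensities were quantile normalised over all spots (limma 3.58.1, R 4.3.3), set to at least 0, increased by 50 and put on the log2 scale. Adding 50 understates changes, those of dim genes most. Spots of a gene were averaged, and groups compared with lmFit and eBayes, two-sided. A gene dim in 1 group (all spots below 100) has a fold bound against 100. In data simulated for RWV against Mono over 18334 genes, the fit called 85 of 100 genes changed by 1 log2 unit, 97 of 100 changed by 2, and 9 unchanged genes. The simulated noise was independent between genes and arrays, without array sets, and a far smaller share of genes was changed than passed here. These counts therefore need not hold for the measured arrays. The number of arrays limits precision. Named genes were the 10 clock genes, up to 4 non-overlapping genes past the test per list with the largest change (or the lowest p), and 5 genes correlated with NR1D1. BHLHE40, CSNK1E, THRA, NFIL3, NPAS2, TEF, KRT19 and COL1A1 were named outside this rule after their values were seen. Clock genes, lists, tests and settings were chosen with earlier results of these data known. Figures used Python 3.11.15 with pandas 2.3.3 and matplotlib 3.10.9. Alternatives were the scaling, pseudocount, dim and saturated spots, brightest spot, blocks, array sets, intensity trend and arrays left out.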

Additional observations from a re-analysis of the deposited data

Results flagged for a closer look

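Among 82 combinations of a named gene and a group, 3 had a single array set far apart from the other 4, and chance alone flags about 1 in 20. None of the 10 clock genes was among them. GSK3A was lowest on Mono 1, at 23120 where the other Mono arrays lay between 24690 and 25220. WDR5 was highest among the RWV arrays on RWV 3, at 665, with the nearest at 399. SFPQ was highest among the monolayers on Mono 4, at 472, with the nearest at 326.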

How the results depend on the processing

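Without normalisation between arrays, 2 clock genes and 3555 of all genes passed the test, and 29.2% of those 3555 were higher in RWV against 49.6% of the calls with it. NFIL3, not past the test, then gave -0.18. Within arrays 1 to 3, 3017 genes passed. Within arrays 4 and 5 only 2 arrays a group entered. There 1052 of all genes, 2 of the clock-related genes and 0 of the clock genes passed by limma. At an unadjusted p below 0.05 there were 5 of the 10 clock genes and 4406 of all 18334 genes. With single arrays left out the counts were 5 to 6 clock genes, 14 to 23 related genes and 4449 to 5632 genes; 14 was reached without RWV 1. The log2 difference of PER1 changed sign at a pseudocount of 16 (0.0089), within arrays 1 to 3 (0.36) and with some single arrays left out (-0.17 to 0.15). Without both Mono 4 and RWV 3, chosen after seeing the data, 6 clock genes passed, DBP being added (0.61, adjusted p = 0.035). With the replicate number of the labels as a block, 6 clock genes, 23 related genes and 5423 genes passed, and CLOCK was added (limma adjusted p = 0.046). The labels do not say that a number marks a shared batch, and deviations of same-numbered arrays correlated at -0.15 to 0.22, above 0.1 in 3 of 5 pairs, so the numbers were not taken to pair the samples; 3 of 5 RWV arrays correlated best with their own number, a hint from the data only. The cause of these changes was not tested. Signal over background limits PER3 and BHLHE41.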
